A study of Salmo salar with 6 samples.

Results

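The genes described here encode the subunits of AMP-activated protein kinase (AMPK) in the head kidney (HK) of Atlantic salmon (Salmo salar). They were taken as every probe of a salmon oligonucleotide array whose RefSeq accession maps to a gene symbol beginning with prkaa, prkab or prkag. The rule gave 4 probes for 4 genes among 42386 non-control probes, of which 25641 map to 25460 genes of the table: prkaa2 for the catalytic alpha subunit, prkab1a for the beta subunit, and prkag1 and prkag2a for the gamma subunit. All 4 belonged to the 25826 probes kept, meaning those whose spot the scanner software marked as well above background on 3 or more of the 6 arrays. The gene table held 1 more subunit gene, prkag3b, which no probe matched, and no gene with the symbol prkaa1. The accession version of the prkag1 probe was in this table. Those of the prkaa2, prkab1a and prkag2a probes were not, and these were matched with the version removed. A further 17486 probes map to genes known only by a locus number, and whether any of them encodes an AMPK subunit was not analysed here.

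AMPK is a heterotrimer that senses the energy state of the cell. The alpha subunit carries the kinase domain, the beta subunit holds the complex together and binds glycogen, and the gamma subunit binds AMP, ADP and ATP. When AMP or ADP rises relative to ATP, and the kinase LKB1 has phosphorylated the alpha subunit, AMPK slows fatty acid, sterol and protein synthesis and favors fatty acid oxidation and autophagy. The HK is the main blood-forming organ of bony fish and also holds immune cells and interrenal and chromaffin endocrine cells. In leukocytes of mammals, AMPK is known for its part in the balance between glycolysis and mitochondrial respiration.

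The study compared juvenile salmon fed for 133 days either a basal diet with 0.15% AQUOLIVE®, an olive fruit extract rich in triterpenic acid and polyphenols, or the same basal diet without it (control). Fish of both diets had received hydrogen peroxide and formaldehyde baths on arrival. HK RNA of 18 fish per diet was combined into 3 pools of 6 fish, 1 fish from each of 6 tanks, and each pool was labeled with Cy3 and hybridized to its own one-color Agilent array. The pool is the unit of replication (n = 3 per diet), so the variation between individual fish was not measured and the pools of a diet share their tanks.

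The arrays differed in brightness before scaling. Median processed signal lay between 69.3 and 108 units on the AQUOLIVE® arrays and between 16.7 and 79.6 units on the control arrays, and 54.1% to 76.0% against 42.5% to 60.9% of probes were well above background. The array of control pool 3 was the dimmest. Each array had its own slide, and the slides of the diets were scanned in separate runs, so slide, scan run and diet cannot be told apart. Of the marker lists for cells of the HK, 7 neutrophil, 5 erythroid, 5 macrophage, 3 B-cell and 2 T-cell genes had a kept probe, as did the steroidogenic genes star and hsd3b1 and the catecholamine genes th and pnmt. In bulk RNA of this kind, fewer cells of a type and less RNA per cell cannot be told apart.

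The transcript of the catalytic subunit prkaa2 had a higher signal in every AQUOLIVE® pool than in any control pool. The gene was chosen by its difference between the diets in these same arrays, so its values are a description and carry no test. The other 3 subunits were taken by symbol alone. Its processed signal, the background-corrected spot intensity given by the scanner software, was 614, 455 and 522 units in AQUOLIVE® pools 1, 2 and 3, against 149, 94.1 and 13.5 units in control pools 1, 2 and 3. The AQUOLIVE® pools were close to each other, whereas the control pools spread over a wide range with control pool 3 lowest. The spot of control pool 3 was the only one of the 24 subunit spots that was not well above background. The error that the software assigned to the prkaa2 spot was 10.0% to 10.2% of its signal on the AQUOLIVE® arrays and 10.5% to 26.1% on the control arrays.

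**Figure D1:**
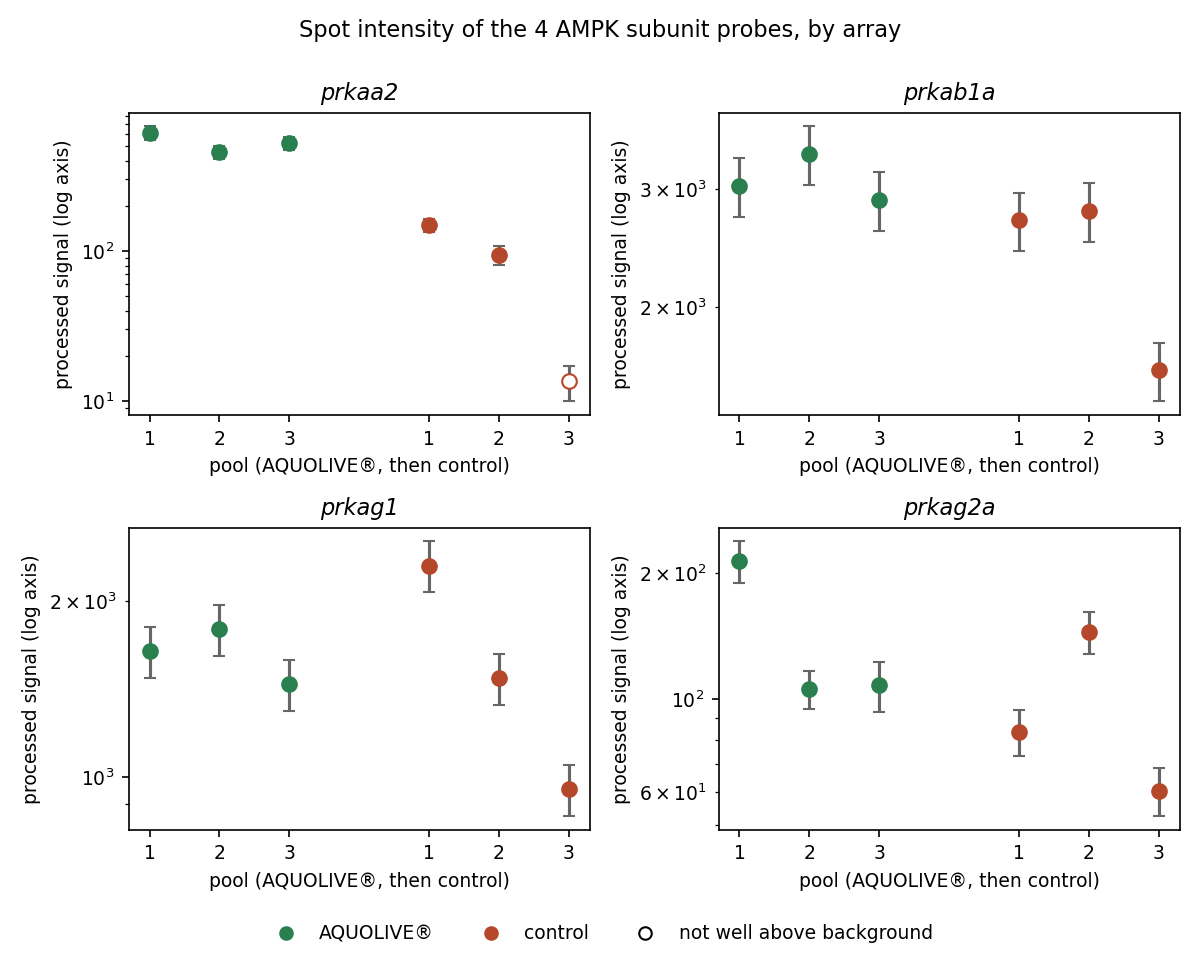
Processed signal (log axis, arbitrary intensity units) of the 4 AMPK subunit probes on each of the 3 AQUOLIVE® and 3 control arrays, before scaling between arrays; bars are the scanner software's own error of the spot and the open point is a spot not well above background. For prkaa2 the AQUOLIVE® pools lie between 455 and 614 units and the control pools between 13.5 and 149 units, while for prkag1 and prkag2a the diets overlap.

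After loess scaling of the arrays, the normalized log2 signal of prkaa2 was 8.05, 7.89 and 8.19 in AQUOLIVE® pools 1, 2 and 3, against 6.76, 5.83 and 5.09 in control pools 1, 2 and 3. The lowest AQUOLIVE® pool stood 1.14 log2 units above the highest control pool. The means were 8.04 ± 0.15 for fish fed AQUOLIVE® and 5.89 ± 0.83 for control fish (SD, n = 3 each), a log2 FC of 2.15 (SE 0.43), or 4.44-fold. The AQUOLIVE® pools covered a range of 0.30 log2 units and the control pools one of 1.66, so most of the spread lay within the control diet. Over the 3 AQUOLIVE® and 2 control arrays on which the spot was well above background, the log2 FC was 1.75. Of all kept probes, 287 (1.11%) had a log2 FC at least as large as that of prkaa2, and the median of all kept probes was −0.02. With normexp background correction in place of the software's own, and an offset of 50 units added to every spot, the log2 FC was 0.99. The diets did not overlap there either. Such an offset by itself lowers the log2 ratio of dim spots, and its share in the 0.99 was not separated.

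The beta subunit prkab1a, the scaffold between the catalytic and the nucleotide-binding subunit, did not pass the test. Its processed signal was 3029, 3379 and 2888 units in AQUOLIVE® pools 1, 2 and 3, against 2693, 2781 and 1608 units in control pools 1, 2 and 3. Its normalized log2 signal was 10.72, 10.84 and 10.73 in AQUOLIVE® pools 1, 2 and 3, against 10.94, 11.07 and 11.37 in control pools 1, 2 and 3. Before scaling all AQUOLIVE® pools were thus above all control pools, and after loess all AQUOLIVE® pools were below all control pools, by a gap of 0.0995 log2 units. The normalized means were 10.77 ± 0.069 and 11.13 ± 0.22 (SD, n = 3 each) for AQUOLIVE® and control fish, with a log2 FC of −0.36 (SE 0.21, 95% interval −0.87 to 0.15, limma adjusted p = 0.383).

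Both gamma subunits, which carry the nucleotide-binding sites, had means below those of the control diet after loess and above them in the unscaled log2 values, and neither passed the adjusted threshold of 0.05. For prkag1 the processed signal was 1643, 1789 and 1442 units in AQUOLIVE® pools 1, 2 and 3, against 2299, 1477 and 953 units in control pools 1, 2 and 3. Its normalized log2 signal was 9.81, 9.92 and 9.72 in AQUOLIVE® pools 1, 2 and 3, against 10.71, 10.13 and 10.66 in control pools 1, 2 and 3. The diets overlapped in processed signal and were separate after loess, with the AQUOLIVE® pools lower by a gap of 0.213 log2 units. In the deposited unscaled log2 values they were separate the other way, with 10.75, 10.65 and 10.63 in AQUOLIVE® pools 1, 2 and 3, against 10.47, 10.60 and 10.09 in control pools 1, 2 and 3. The means were 9.81 ± 0.10 for AQUOLIVE® and 10.50 ± 0.32 for control (SD, n = 3 each). The log2 FC was −0.69 (SE 0.24, 95% interval −1.27 to −0.11, limma adjusted p = 0.229), with an unadjusted limma p of 0.0274.

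The signal of prkag2a, well above background on all 6 arrays, varied as much within a diet as between the diets. Its processed signal was 214, 106 and 108 units in AQUOLIVE® pools 1, 2 and 3, against 83.7, 145 and 60.5 units in control pools 1, 2 and 3. Its normalized log2 signal was 6.46, 5.79 and 5.94 in AQUOLIVE® pools 1, 2 and 3, against 5.92, 6.48 and 7.04 in control pools 1, 2 and 3. AQUOLIVE® pool 1 and control pool 2 had nearly the same value, and the diets overlapped on both scales. The log2 FC was −0.41 (SE 0.35, 95% interval −1.27 to 0.44, limma adjusted p = 0.533).

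**Figure D2:**
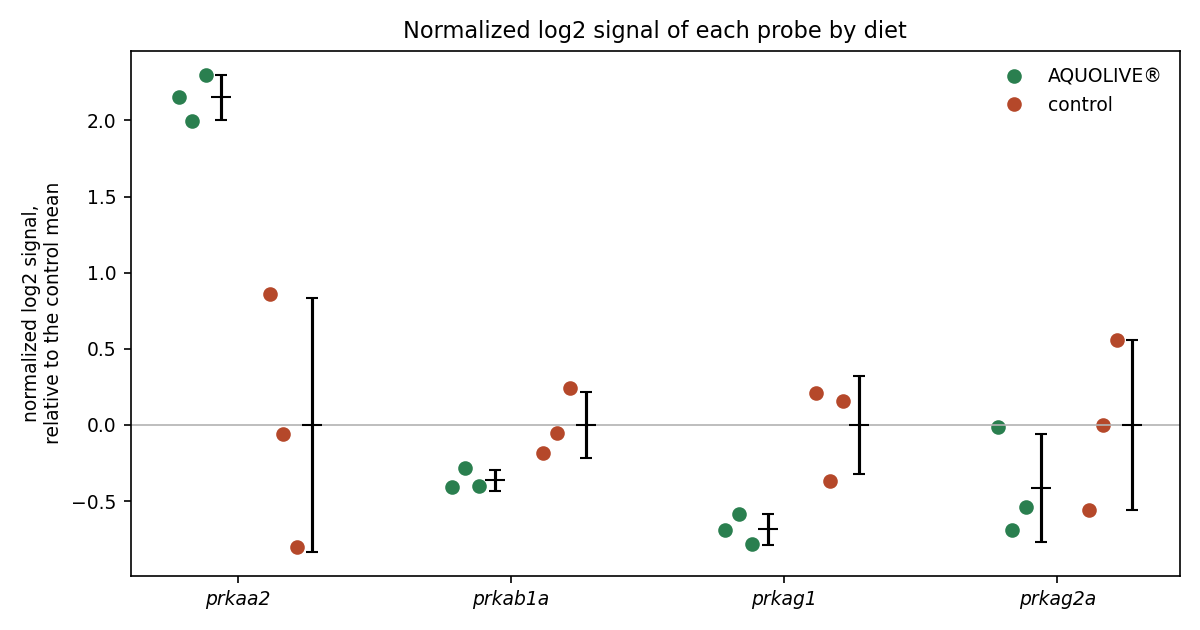
Normalized log2 signal of each AMPK subunit probe relative to its mean in the control pools (vertical axis, log2 units), for 3 AQUOLIVE® pools and 3 control pools per gene, with bars for mean ± SD. For prkaa2 the AQUOLIVE® mean lies 2.15 log2 units above the control mean, and for prkab1a, prkag1 and prkag2a it lies 0.36, 0.69 and 0.41 log2 units below it after loess, whereas it lies above it for all 3 in the unscaled log2 values.

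Among the 3 subunits tested, none passed limma's adjusted threshold and 1, prkag1, had an unadjusted limma p under 0.05. The methods' t-test, an unpaired test of the diets, also put only prkag1 under 0.05 and none after adjustment. Over all kept probes limma called 4 (0.0155%), all 4 higher in fish fed AQUOLIVE®, and 4685 (18.1%) had an unadjusted p under 0.05, 9.56% higher and 8.58% lower. The 1 of 3 subunits is read against that share. The 4 calls became 61 without AQUOLIVE® pool 2, of which 11 were higher and 50 lower, and 0 without any other single pool. The methods' t-test put 4068 (15.8%) of 25823 probes under an unadjusted 0.05 and 0 after adjustment. The diets did not overlap for prkaa2, prkab1a and prkag1, as for 7489 (29.7%) of the 25230 probes measured without a missing value, 14.7% higher and 15% lower in AQUOLIVE® fish. The exact permutation test over the arrays gave p = 0.1 for prkab1a and prkag1 and p = 0.4 for prkag2a, where 0.1 is the smallest p that 3 against 3 pools allow. The sign of the beta and gamma differences also depended on the scaling. With the deposited log2 values, which were not scaled between arrays, the log2 FC was 0.42 for prkab1a, 0.29 for prkag1 and 0.74 for prkag2a, while the median of all kept probes was itself 0.98. Relative to that median the 3 genes stood at −0.56, −0.69 and −0.24, and prkaa2 at 1.87.

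A factor common to a whole array cancels when 2 probes of that array are subtracted, so the change of prkaa2 was also followed against each other subunit within the array, before any scaling. An array effect that depends on signal level does not cancel in this way. The difference against prkab1a, 2.52 after loess, was 1.28 with normexp and its offset of 50 units, and 3.89 with spike-in calibration. That against prkag2a, 2.57 after loess, was 1.13 and 2.66. Relative to the mean of the control arrays, the log2 difference between prkaa2 and prkab1a was 3.02, 2.43 and 2.85 in AQUOLIVE® pools 1, 2 and 3, against 1.14, 0.44 and −1.58 in control pools 1, 2 and 3. For prkaa2 and prkag1 it was 3.27, 2.71 and 3.22 in AQUOLIVE® pools 1, 2 and 3, against 0.74, 0.72 and −1.45 in control pools 1, 2 and 3. For prkaa2 and prkag2a it was 2.17, 2.76 and 2.92 in AQUOLIVE® pools 1, 2 and 3, against 1.48, 0.030 and −1.51 in control pools 1, 2 and 3. The diets did not overlap for any of the 3 pairs, and control pool 3 was lowest in each.

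The signal of prkaa2 thus differed between the diets by 2.77 log2 units more than that of prkab1a, by 3.07 more than that of prkag1 and by 2.62 more than that of prkag2a without scaling, and by 2.52, 2.84 and 2.57 after loess. These pairs contain prkaa2 and are given without a test. For the pairs without prkaa2, the smallest p that the design allows is 0.1. After loess, prkab1a against prkag1 differed by 0.32 log2 units (exact permutation p = 0.3, n = 3 pools per diet), prkab1a against prkag2a by 0.051 (exact permutation p = 0.9) and prkag1 against prkag2a by −0.27 (exact permutation p = 0.7). A difference within an array shows that 2 probes changed unequally and not which of them stayed constant.

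**Figure D3:**
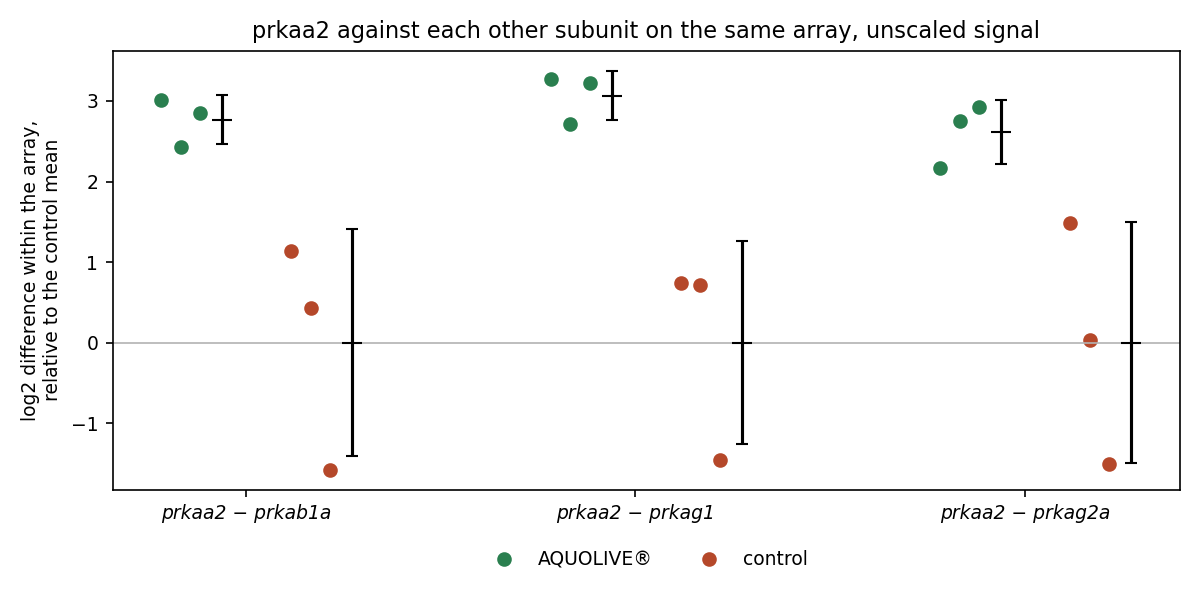
Log2 difference between the prkaa2 probe and each other subunit probe on the same array (vertical axis, log2 units, unscaled processed signal, set to 0 at the mean of the control arrays), for 3 AQUOLIVE® and 3 control pools per pair, with bars for mean ± SD. The AQUOLIVE® pools lie between 2.17 and 3.27 and the control pools between −1.58 and 1.48.

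The log2 FC of prkaa2 was above that of the other subunits under every other way of processing in which it was kept, a direction that follows from how the gene was chosen. Its log2 FC lay between 0.99 (normexp) and 3.57 (calibration to the spike-in RNAs of each array), and between 1.00 and 2.64 once the median of all kept probes was subtracted. Leaving out 1 pool at a time gave 1.75 (without control pool 3) to 2.59 (without control pool 1). When a probe had to be well above background on all 6 arrays, prkaa2 was dropped because of its spot in control pool 3.

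The spike-in response of the arrays moved with prkaa2. The slope of log signal on log spike-in amount was 1.06, 1.05 and 1.08 on the arrays of AQUOLIVE® pools 1, 2 and 3, against 0.889, 0.862 and 0.810 on those of control pools 1, 2 and 3. The order of the 6 arrays by slope was the same as their order by normalized prkaa2 signal. The slopes were separate by diet and prkaa2 was chosen for its diet difference, so that part of the match follows from the choice. How many other probes shared this order was not counted. For prkab1a the order was nearly the opposite, with control pool 3 highest and AQUOLIVE® pool 1 lowest, and for prkag1 too the AQUOLIVE® pools were the 3 lowest. Calibration subtracted the intercept of each array's spike-in line from the log signal and divided by its slope. The calibrated prkaa2 value was 11.12, 10.74 and 11.17 log2 units in AQUOLIVE® pools 1, 2 and 3, against 8.62, 7.97 and 5.73 in control pools 1, 2 and 3. The diets remained apart by this measure, in which the median of all kept probes was 0.93 higher in AQUOLIVE® fish and prkag2a, at 0.91, differed by no more than that median. The prkaa2 difference was 3.57 log2 units by this measure.

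**Figure D4:**
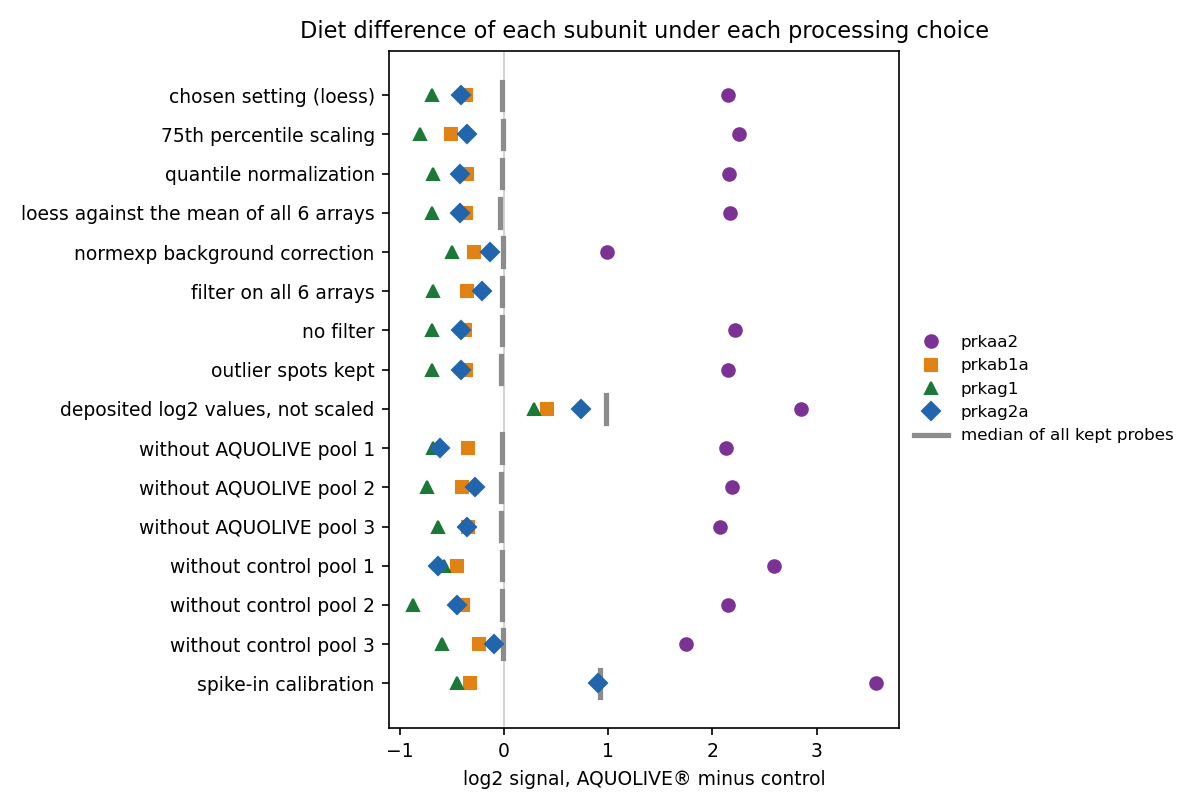
Log2 FC, AQUOLIVE® minus control (horizontal axis, log2 units), of each AMPK subunit probe under 16 ways of processing the 6 arrays (vertical axis), with a grey bar at the median of all kept probes. prkaa2 lies between 0.99 and 3.57 wherever it was kept and always right of the median of all probes, while the other subunits lie left of that median, prkag2a by only 0.02 under spike-in calibration.

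The profile of prkaa2 over the 6 pools was set beside those of its partner subunits and of other probes. Centered on its own mean, prkaa2 stood at 1.08, 0.92 and 1.22 log2 units in AQUOLIVE® pools 1, 2 and 3, against −0.21, −1.14 and −1.88 in control pools 1, 2 and 3. The root mean square (RMS) difference from this profile was 1.40 log2 units for prkab1a, 1.51 for prkag1 and 1.53 for prkag2a. Among 5789 other probes with a symbol, the nearest profile was that of znf395b, a zinc finger protein gene, with an RMS difference of 0.176. It was followed by rilpl2, which encodes a Rab-interacting protein (0.243), alg10, a glucosyltransferase of N-glycan assembly (0.263), mkrn2, a makorin RING finger protein (0.268), and slc38a9, a lysosomal amino acid transporter (0.276). These 5 genes had a log2 FC between 1.66 and 2.22 and, like prkaa2, were lowest in control pool 3. Likeness was measured over the same 6 arrays, which share their scaling and brightness, and it carries no test. Since prkaa2 was chosen for its difference between the diets, a distance from probes without such a difference follows from that choice. The 5 genes were picked by this same profile, so their low value in control pool 3 follows from the picking.

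Genes that act upstream of AMPK, its known targets, other kinases of the LKB1 branch and adenine nucleotide enzymes were divided in direction after loess. On the unscaled and spike-in scales, those with an unadjusted limma p under 0.05 were all higher, and the median of all kept probes was higher too. Of 120 such genes in 8 lists, 52 had a probe and 46 gene symbols were kept. Of the 46, 24 had a higher and 22 a lower mean in AQUOLIVE® fish, with a median log2 FC of 0.03, beside −0.02 over all kept probes. None of the 46 passed limma's adjusted threshold (smallest adjusted p = 0.175), and 4 had an unadjusted p under 0.05, 2 higher and 2 lower (8.7% of the 46, beside 18.1% of all kept probes). The diets did not overlap for 7 of the 46 that were higher and 5 that were lower in AQUOLIVE® fish. Over all probes measured without a missing value, these shares were 14.7% higher and 15% lower. The separations named below are read against those shares. The methods' t-test put 6 of the 46 under an unadjusted 0.05, 4 higher and 2 lower, beside 15.8% of all probes it tested. With the unscaled log2 values, 4 genes had an unadjusted limma p under 0.05 and a higher mean, and 0 a lower one. Of all kept probes, 13.1% were under 0.05 there. The median of the 46 genes was 0.88 there, beside 0.98 over all kept probes. With spike-in calibration these counts were 16 higher and 0 lower, with a median of 0.75 beside 0.93. Of all kept probes, 43.3% were under an unadjusted 0.05 with this calibration. Those past the adjusted threshold were 5416 higher and 39 lower, so the one-sided direction was shared by the whole array. On neither scale were the directions of the other genes counted. The limma count was 7 without control pool 1 and 2 without AQUOLIVE® pool 3.

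**Figure D5:**
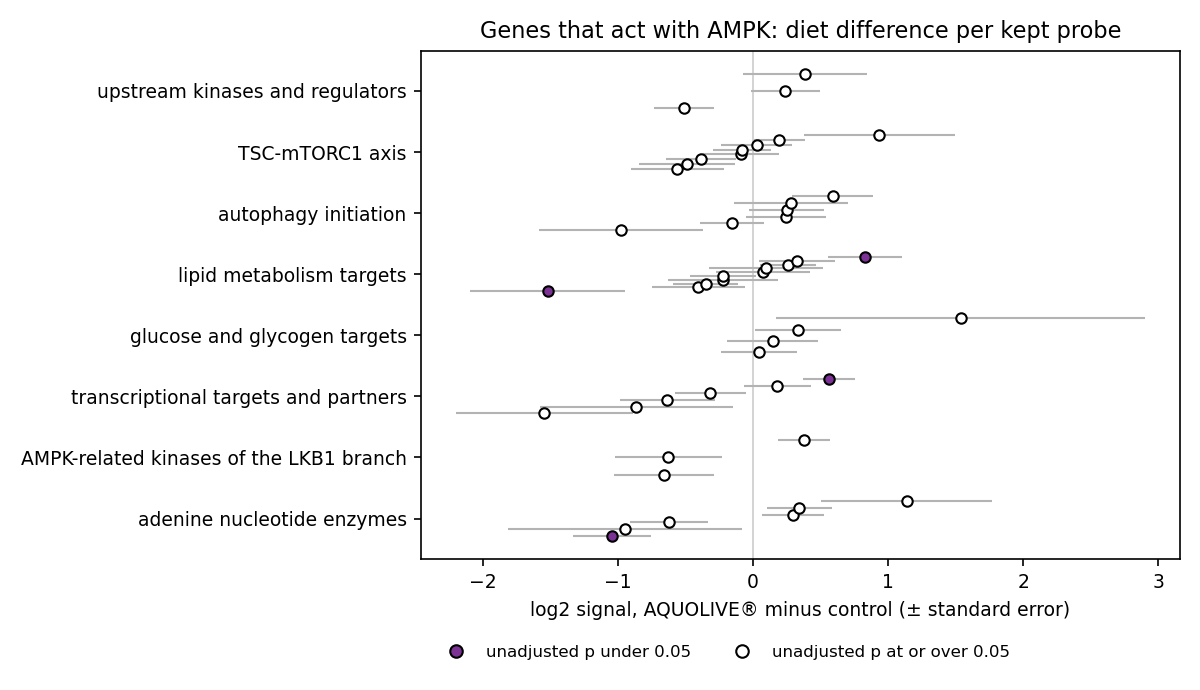
Log2 FC, AQUOLIVE® minus control (horizontal axis, log2 units, ± limma's moderated SE), of the 46 kept genes of the AMPK lists, in 8 lists (vertical axis), with filled points for an unadjusted limma p under 0.05. The points lie on both sides of 0, from −1.55 for hdac4 to 1.54 for pck1, and 4 of the 46 are filled.

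In the list of upstream regulators, 3 genes were kept, 2 with a higher and 1 with a lower mean. The lower one was flcn, whose product folliculin binds AMPK through its FNIP partners, with a log2 FC of −0.51 (SE 0.22, limma adjusted p = 0.290) and no overlap between the diets. The stress-induced sestrin gene sesn2 had a log2 FC of 0.39 (SE 0.46), and ppm1aa, a copy of the gene for a phosphatase that removes the activating phosphate of AMPK, one of 0.24 (SE 0.25). LKB1 (stk11) and the CaMKK genes had no matched probe.

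AMPK restrains the growth-promoting kinase complex mTORC1. The TSC-mTORC1 list had 8 kept genes, 3 higher and 5 lower, with a median of −0.09 and 0 under an unadjusted 0.05 by limma. The mTOR complex subunit mlst8 had a log2 FC of 0.94 (SE 0.56, limma adjusted p = 0.394), with overlap between the diets. The Ragulator subunits lamtor5 and lamtor1 stood at −0.56 and −0.39, the translation repressor eif4ebp3 at −0.49 and mtor itself at 0.03. None of these genes passed the test.

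AMPK also triggers autophagy through the ULK1 complex. In this list 6 genes were kept, 4 higher and 2 lower, with a median of 0.25. The ULK complex scaffold rb1cc1 had a normalized log2 signal of 10.50, 10.50 and 10.72 in AQUOLIVE® pools 1, 2 and 3, against 10.41, 10.10 and 9.44 in control pools 1, 2 and 3. The diets did not overlap, but the log2 FC of 0.59 (SE 0.30) did not pass the test (limma adjusted p = 0.338). The kinase gene ulk1a had a log2 FC of −0.98 (SE 0.61), with a wide spread in the control pools, and atg14 and atg13 stood at 0.25 and 0.24.

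The lipid metabolism list had 10 kept genes, 5 higher and 5 lower, with a median of −0.07. The gene cpt1ab, a copy of carnitine palmitoyltransferase I, which lets long-chain fatty acids into mitochondria and is released from inhibition when AMPK inactivates acetyl-CoA carboxylase, had a normalized log2 signal of 8.09, 8.06 and 8.40 in AQUOLIVE® pools 1, 2 and 3, against 7.33, 7.76 and 6.98 in control pools 1, 2 and 3. Every AQUOLIVE® pool was above every control pool, with a log2 FC of 0.83 (SE 0.27, limma p adjusted over all kept probes = 0.210). The hormone-sensitive lipase copy lipea had 6.44, 6.92 and 6.17 in AQUOLIVE® pools 1, 2 and 3, against 6.78, 8.92 and 8.39 in control pools 1, 2 and 3. Here the diets overlapped through AQUOLIVE® pool 2 and control pool 1, and the log2 FC was −1.52 (SE 0.57, limma adjusted p = 0.252). The other kept copy, lipe, stood at −0.41 (SE 0.34) with overlap between the diets. The inner membrane partner of the carnitine system, cpt2, stood at −0.35, with every AQUOLIVE® pool below every control pool. Another kept gene of carnitine palmitoyltransferase I, cpt1b, stood at 0.07 with overlap. The gene gpam, which starts glycerolipid synthesis, stood at 0.26. A probe for acaca, acetyl-CoA carboxylase itself, was on the array but was not kept.

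The 4 kept genes of glucose metabolism all had a higher mean in AQUOLIVE® fish, with a median of 0.24, and for all 4 the diets overlapped. The gluconeogenic gene pck1 had the largest value of the list, 1.54 (SE 1.37), which came from AQUOLIVE® pool 3 at 10.53, beside 6.05 and 5.71 in AQUOLIVE® pools 1 and 2 and 5.97, 4.68 and 7.04 in control pools 1, 2 and 3. Its mitochondrial counterpart pck2 stood at 0.33, the bifunctional enzyme pfkfb4a at 0.15 and txnip, an inhibitor of glucose uptake, at 0.04.

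Of the transcriptional targets and partners of AMPK, 6 genes were kept, 2 higher and 4 lower, with a median of −0.48. The acetyltransferase gene ep300b had a normalized log2 signal of 10.85, 10.81 and 10.64 in AQUOLIVE® pools 1, 2 and 3, against 10.13, 10.25 and 10.23 in control pools 1, 2 and 3. The groups were tight and separate, and the log2 FC was 0.56 (SE 0.19, limma adjusted p = 0.225). The class IIa deacetylase gene hdac4, well above background on 1 AQUOLIVE® and 2 control arrays, stood at −1.55 (SE 0.65), and the CREB coactivator crtc2 and creb1b at −0.63 and −0.87, each with overlap between the diets. The creb1b probe was well above background on 2 AQUOLIVE® arrays and 1 control array.

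Enzymes that set the level of adenine nucleotides are of interest because AMP is what the gamma subunits bind. Of 6 kept genes, 3 were higher and 3 lower, with a median of −0.16. The adenosine kinase copy adkb, whose product makes AMP from adenosine, had a normalized log2 signal of 6.56, 6.96 and 6.63 in AQUOLIVE® pools 1, 2 and 3, against 7.87, 8.12 and 7.28 in control pools 1, 2 and 3. The highest AQUOLIVE® pool was below the lowest control pool, with a log2 FC of −1.05 (SE 0.29), the smallest p of all 46 genes though not past the threshold (limma adjusted p = 0.175). The adenylate kinase family members ak6, ak3 and ak4 stood at 1.14 (SE 0.63), 0.34 (SE 0.24) and −0.62 (SE 0.29), and for ak6 and ak3 the diets did not overlap. The ak4 probe was well above background on 1 AQUOLIVE® and 2 control arrays, and the ak6 probe on 3 AQUOLIVE® and 2 control arrays. The 3 AQUOLIVE® pools of ak6 lay within 9.40 to 9.42, whereas control pool 3 stood at 6.75 beside 9.13 and 8.93 in control pools 1 and 2.

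Among the kinases that LKB1 activates beside AMPK, 3 were kept. The microtubule affinity kinase gene mark1 had a log2 FC of 0.37 (SE 0.19), and mark3a and mark2a had −0.66 (SE 0.37) and −0.63 (SE 0.39), with limma adjusted p of 0.340, 0.373 and 0.410. The diets did not overlap for any of the 3, a separation also seen for 29.7% of all probes measured without a missing value. Control pool 3 was the highest pool for mark3a and mark2a.

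The alpha2 isoform is abundant in skeletal muscle of mammals, so markers of muscle were read on the same arrays. Of 14 muscle genes, 4 had a probe and 3 (ckmb, actn3b and tnnt1) were kept, while myog was not well above background on any array. All 3 had a lower mean in AQUOLIVE® fish, with a median log2 FC of −1.13 and 0 past an unadjusted limma p of 0.05 (smallest adjusted p = 0.403). Their summed normalized signal was 491, 881 and 3407 in AQUOLIVE® pools 1, 2 and 3, against 2003, 1703 and 8518 in control pools 1, 2 and 3. This linear sum is made up mostly of ckmb, whose mean normalized log2 signal was 9.94 in AQUOLIVE® and 11.44 in control pools. The means were 6.84 and 7.55 for actn3b and 4.77 and 5.90 for tnnt1. The sum was highest in control pool 3, where prkaa2 was lowest. Within the AQUOLIVE® diet it was highest in pool 3, where normalized prkaa2 was highest. The tnnt1 probe was well above background on 2 AQUOLIVE® and 2 control arrays. The part of muscle tissue in the prkaa2 difference was not tested.

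Over all 8 marker lists of cell types that a piece of HK can hold, 31 genes were kept, 11 higher and 20 lower in AQUOLIVE® fish, with a median of −0.09. None passed limma's adjusted threshold and 6 had an unadjusted p under 0.05, or 19.4% of the 31, close to the 18.1% of all kept probes. These were the globin gene hba (0.90) and the granulocyte receptor gene csf3r (1.28), both higher, and the granulocyte peroxidase gene mpx (−0.90), the macrophage gene cd68 (−0.85), the chromaffin gene th (−1.34) and the renal tubule gene cdh16 (−1.74), all lower, with limma adjusted p of 0.173 to 0.219. The hba value rests on 2 AQUOLIVE® pools and the mpx value on 2 control pools, since outlier spots were masked. The th probe was well above background on 2 AQUOLIVE® and 2 control arrays. In the same list, pnmt stood at −0.30 with overlap, star at 0.19 and hsd3b1 at −0.09. Beside cdh16 the only kept tubule gene was aqp1, at −0.16 with overlap. The unkept tubule probes cubn, slc12a3 and slc5a2 were well above background on 2, 1 and 1 AQUOLIVE® arrays and on 0 control arrays, and lrp2a and lrp2b on 0 arrays. Of the other erythroid genes, gata1, alas2 and epor stood at −0.19, −0.18 and −0.03, and slc4a1b at 1.22. The slc4a1b probe was well above background on 3 AQUOLIVE® arrays and 1 control array, and the diets overlapped for it. Normalized signal was summed over the list genes with a value on all 6 arrays. For 6 neutrophil genes the sum ranged over 98153 to 141557 in AQUOLIVE® pools and 114963 to 141824 in control pools. For 3 macrophage genes it ranged over 24025 to 26654 in AQUOLIVE® pools and 31270 to 47753 in control pools. Of these 3 macrophage genes, cd68 stood at −0.85, c1qa at −0.03 and lgals3a at 0.46. The T-cell genes cd8a and cd3e stood at 0.67 and 0.68, with overlap between the diets for cd3e only. Their sum ranged over 759 to 858 in AQUOLIVE® pools and 252 to 767 in control pools, lowest in control pool 3. The cd3e probe was well above background on 3 AQUOLIVE® and 2 control arrays. The B-cell genes syk, cd79b and blnk stood at 0.21, 0.21 and −0.05, each with overlap. Their sum was also lowest in control pool 3, at 5901. The part of cell composition in the prkaa2 difference was not tested.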

How the data were processed

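HK RNA pools of 3 AQUOLIVE® and 3 control groups of 6 fish were read on 6 arrays. The authors extracted spot intensities with Agilent Feature Extraction (version 10.7.3.1 in the file headers) and deposited, per spot, a processed signal intensity, outlier and background flags, and a log2 value that matched the log2 of its background-subtracted signal to within 1e-08. The output of the Lowess step and unpaired test named in the study's methods was not used.

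In R 4.3.3, the log2 of the processed intensity was taken, outlier spots were masked, and a probe was kept if flagged well above background on 3 or more of 6 arrays. A robust loess curve (span 0.3, 4 iterations) of the log2 ratio between an array and the averaged 3 control arrays was subtracted from that array. Differences between the diets were tested with limma 3.58.1 (lmFit, eBayes, Benjamini-Hochberg over all kept probes, threshold 0.05, two-sided), with the methods' t-test and with exact permutation over all 10 ways of splitting the arrays. The script was tested on simulated data.

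Probes were named by RefSeq accession, version removed, in the Ssal_v3.1 gene table: 40932 of 42386 had an accession, 25641 were found, and 8155 of these had a symbol. List genes were matched by symbol or by symbol plus the suffix of a salmon gene copy; slc2a11 genes and tha1, which such suffixes also catch, are other genes and were left out. The brightest probe stood for a symbol with several. The text names every subunit probe, up to 4 genes per AMPK list by smallest unadjusted limma p, and the 5 nearest profiles to prkaa2. The genes mtor, acaca, stk11, cpt1b, lipe and the marker genes were named outside that rule, with values seen. The members and lists were chosen with earlier results of these data known. The number of arrays, 3 per diet, limits the precision.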

Additional observations from a re-analysis of the deposited data

How the results depend on the processing

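The prkaa2 difference kept its direction in all 15 alternatives that gave a value, a direction set by the choice of the gene. It was 0.99 with normexp background correction and an offset of 50 units (on the median spot signal, since the mean was not among the columns). It was 2.85 with the deposited unscaled log2 values and 3.57 with spike-in calibration, an alternative chosen after seeing the data. When pools were left out in turn it was 1.75 to 2.59. Within the array, normexp gave 1.28 against prkab1a, 1.49 against prkag1 and 1.13 against prkag2a. Spike-in calibration gave 3.89 against prkab1a, 4.02 against prkag1 and 2.66 against prkag2a. Leaving out pools gave 1.99 to 3.04, 2.35 to 3.17 and 1.84 to 3.22 for the 3 pairs. The sign turned for prkab1a (0.42), prkag1 (0.29) and prkag2a (0.74) in the unscaled values and for prkag2a (0.91) with spike-in calibration, where the median of all probes was 0.98 and 0.93. None of these 3 subunits passed the adjusted threshold in any of 17 alternatives. The separation of the diets for prkab1a and prkag1 was lost with 75th percentile scaling and spike-in calibration (where prkag2a became separate). In the deposited unscaled values it ran the other way. The unscaled processed signal of prkag1 overlapped between the diets. Its spot in control pool 1 was 2299 units there, beside 1414 in the background-subtracted signal behind the deposited value.

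Against 4 probes called over the array, 29 were called with 75th percentile scaling, 30 with the filter on all 6 arrays, 9 with normexp, 2 with quantile normalization, 1 with no filter, 5455 with spike-in calibration, 0 with the unscaled values, 0 with the methods' t-test and 0 to 61 with pools left out (61 without AQUOLIVE® pool 2, 11 higher and 50 lower). Probes at an unadjusted p under 0.05 numbered 2629 with normexp, 11192 with spike-in calibration and 2282 to 4758 with pools left out. Of the AMPK lists, normexp gave 1 gene at that p, spike-in calibration 16 (8 past the adjusted threshold) and pools left out 2 to 7, and the block 0 higher and 3 lower. Of the marker lists, the unscaled values and quantile normalization gave 3 each and pools left out 3 to 7. Pools share only a number between the diets (correlation of same-numbered deviations 0.21, −0.06 and 0.03), and with the replicate number as a block 0 probes were called, while the prkaa2 difference stayed at 2.15. The size of the prkaa2 difference is limited by 3 pools per diet and by a spot not well above background in control pool 3.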
